A study of Mus musculus with 2 samples.

Results

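Among 3302 single cells of the adult mouse mammary epithelium, 155 carried transcripts of both luminal lineages in quantity and were examined here as joined cells. A cell was counted as joined when Prlr, Stc2 and Gpx3 together reached 10 or more counts, Trf, Csn3 and Elf5 together reached 8 or more, and the basal genes Krt5, Krt14 and Acta2 together stayed under 8. The cells were thus selected on the measured counts of these 9 genes, whose levels are given as a description only. They formed 4.69% of the cells in that library (exact binomial 95% interval 4.0 to 5.47%) and 155 of the 8073 cells in the series.

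The ducts of the mammary gland have an outer basal layer of contractile myoepithelial cells and an inner luminal layer. The luminal layer holds luminal progenitor (LP) cells, largely negative for hormone receptors and able to give rise to milk-secreting alveolar cells, and mature luminal (ML) cells, many of which carry estrogen and progesterone receptors and pass hormonal signals on through secreted factors. In single-cell capture, a barcode with transcripts of both kinds can be a cell that uses both programs or a droplet that took up more than 1 cell.

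The joined cells came from the library of total epithelium (Lin-CD24+ cells), and the other library held sorted basal cells (Lin-CD29hiCD24+). Both were made from untreated adult female FVB/NJ mice of 10 weeks, with glands of several mice pooled before capture, on the 10X Chromium platform that counts unique molecules at the 3′ end of transcripts. Each kind of sample is therefore 1 library, cells are not replicates, and no difference below has a replicate check or a test. Values are pooled counts with exact 95% intervals that cover counting error only, and a fixed size of 1.5-fold beyond both references was used in place of a test.

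The total epithelial library held 9227651 counts, with 802 to 12967 per cell and a median of 2425.5. The sorted basal library was shallower, with a median of 487 counts per cell and a highest of 1946. In it, 3 of 4771 cells met the rule, with 1283 to 1581 counts each. The libraries shared 28 cell barcodes, of which 2 were joined cells in the total epithelium.

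The same sums set the comparison classes. Cells that passed only the Trf, Csn3 and Elf5 threshold are called progenitor-rule cells (668 cells), those that passed only the Prlr, Stc2 and Gpx3 threshold mature-rule cells (976 cells), and those that passed only the Krt5, Krt14 and Acta2 threshold basal-rule cells (1208 cells). A further 24 cells passed the basal and mature thresholds, 86 passed the basal and progenitor thresholds, 4 passed all 3, and 181 passed none.

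**Figure D1:**
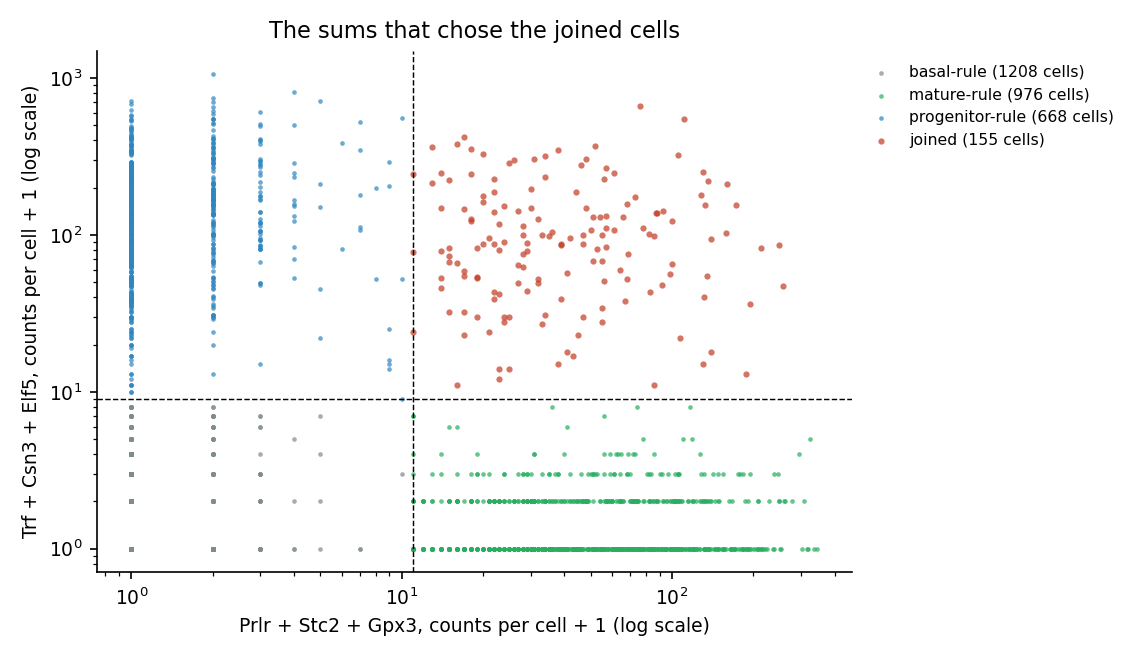
Each point is a cell of 1 of 4 classes, placed by its summed counts of Prlr, Stc2 and Gpx3 (x axis) and of Trf, Csn3 and Elf5 (y axis), both plus 1 on log scales, with dashed lines at the thresholds. The 155 joined cells fill the upper right quadrant, with mature sums of 10 to 257 and progenitor sums of 10 to 657.

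Of the mature genes used in the rule, Prlr encodes the prolactin receptor (chromosome 15, 10177238 to 10349180, plus strand, mm10) and had 0 to 26 counts in the joined cells, with a median of 6. Stc2, a secreted glycoprotein regulated by estrogen (chromosome 11, 31357307 to 31370074, minus strand), had a median of 7 counts, and Gpx3, a secreted glutathione peroxidase (chromosome 11, 54902453 to 54910377, plus strand), had a median of 20. Each of these was found in nearly every joined cell, with Prlr and Gpx3 at 0 in 1 cell each and Stc2 in 3 cells.

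The progenitor genes were less even. Trf, the iron carrier transferrin (chromosome 9, 103204001 to 103230444, minus strand), was present in all 155 cells with a median of 78 counts and a range of 7 to 580. Csn3, the milk protein kappa-casein (chromosome 5, 87925579 to 87932665, plus strand), had a median of 9 and was at 0 in 21 cells. Elf5, the transcription factor that drives alveolar differentiation (chromosome 2, 103411688 to 103450989, plus strand), was at 0 in 80 of 155 cells and reached 8 counts at most. Most of the progenitor sum of the joined cells was thus Trf, and Elf5 marked fewer of them than Prlr did. The basal sum was 0 in 106 cells and never above 4.

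Few cells lay close to the thresholds. There were 15 joined cells with mature sums of 10 to 14, with a median of 4668 counts, and 18 cells just outside, with sums of 5 to 9 and a median of 4160.5 counts. At the progenitor threshold 4 joined cells had sums of 8 to 12, with a median of 2883 counts, and 13 cells just outside had sums of 4 to 7 and a median of 4135 counts.

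The joined cells were deep. They had a median of 5406 counts (quartiles 4337 and 6323.5, range 817 to 10798) and 1958 genes, against 2602 counts and 1036 genes in progenitor-rule cells and 3196.5 counts and 1366.5 genes in mature-rule cells. The joined median was 0.932 of the sum of both reference medians, 5798.5 counts, and the joined mean was 0.856 of the sum of the means. Among progenitor-rule cells 8.68% were as deep as the joined median, and among mature-rule cells 8.30%. The ranges of the 3 classes overlapped, and 6 joined cells had fewer than 2000 counts.

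Fixed thresholds on counts favour deep cells, so depth was also held equal. When each cell with at least 2000 counts was thinned to that number, the joined cells had a median of 1008 genes (149 cells, 6 left out), against 890 in progenitor-rule cells (462 cells, 206 left out) and 1009 in mature-rule cells (827 cells, 149 left out). At equal depth the number of genes was thus that of mature-rule cells. With the thresholds unchanged on the thinned counts, 95 of the 149 cells still met the rule. Thresholds set as shares of a cell's counts gave 118 cells, of which 114 were joined cells.

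The classes that combine basal with luminal sums gave a comparison measured in the same way. Cells with basal and mature sums had a median of 4414 counts, 0.889 of the summed medians of their references, and those with basal and progenitor sums had 2692.5, which was 0.616 of that sum. In the latter the progenitor sum was low, with a median of 12 counts against 87 in joined cells. Per 100000 possible pairs of reference cells there were 23.8 joined cells, 2.04 cells with basal and mature sums and 10.7 with basal and progenitor sums. On this scale joined cells were over 10 times as frequent as cells with basal and mature sums. They exceeded cells with basal and progenitor sums by less (23.8 against 10.7). In the fit described below, however, 57 of those 86 cells had a progenitor weight under 0.1 and 25 had 0.25 or more. Of the 155 joined cells, 11 and 108 did. The 2 frequencies thus do not count cells of like progenitor content. The thresholds and the depth of the references differ between the classes, and no replicate gives the error.

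**Figure D2:**
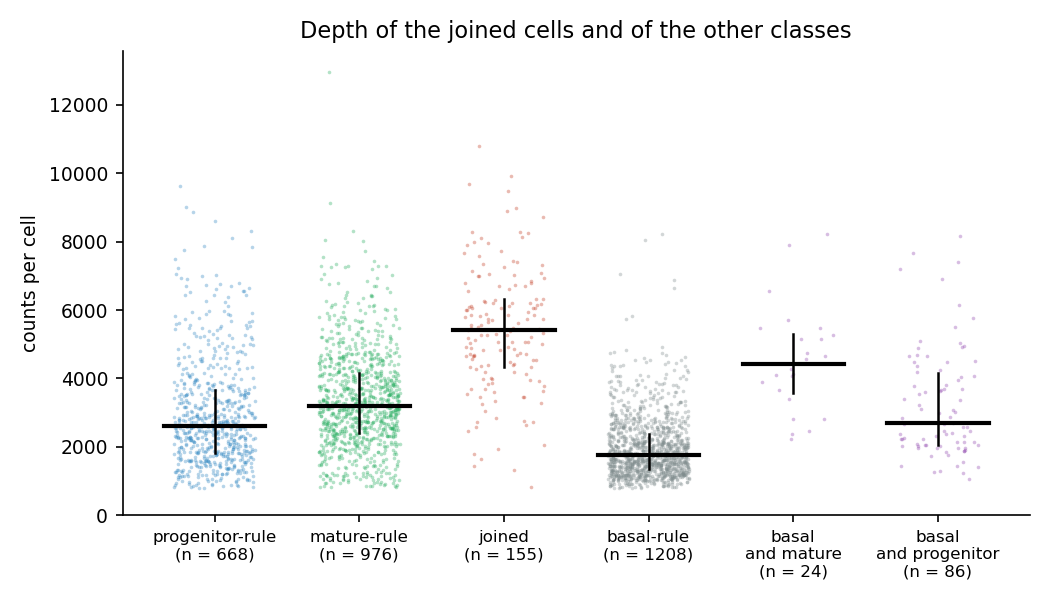
Counts per cell (y axis) for 6 classes, 1 point per cell, with a thick line at the median and a thin line between the quartiles. The joined cells (median 5406) sit above the progenitor-rule (2602) and mature-rule cells (3196.5), and the classes that combine basal with luminal sums have medians of 4414 and 2692.5.

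A doublet caller that compares each cell with artificial pairs, Scrublet, marked 46 of the 3302 cells. It marked 2 of 155 joined cells (1.29%, 0.157 to 4.58%) and 18 of 24 cells with basal and mature sums (75%, 53.3 to 90.2%). Of the cells with basal and progenitor sums it marked fewer, 17 of 86 (19.8%). The joined cells had a median score of 0.124, below the score threshold of 0.240, while progenitor-rule cells had 0.024, mature-rule cells 0.0312 and cells with basal and mature sums 0.394. Cells with basal and progenitor sums had a median score of 0.0542, below that of the joined cells. The joined cells were therefore seldom marked but scored higher than either reference. The share of mitochondrial counts was 0.259% in joined cells, 0.178% in progenitor-rule cells and 0.307% in mature-rule cells. The part of joint capture in the values below was not tested.

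The profile of the joined cells was measured as counts per 1000000 of all counts pooled over a class (CPM). This scales out differences in total counts, but not changes of the profile with depth. Of 1515 genes with a mean of at least 100 CPM over the 3 classes, with the rule genes left out, 1223 (80.7%) had a joined level between the progenitor-rule and mature-rule levels. Only 1 gene (0.066%), Sox4, lay 1.5-fold or more above both references, and 0 genes (0%) lay as far below both. By any size, 178 genes were above both and 114 below both. These calls share cells with the rule, so the counts are a description of the chosen cells. Where the references were 2-fold or more apart, 468 of 469 genes were between them, the exception being Aurkaip1, a mitochondrial ribosomal protein gene, at 1.02 times the higher reference.

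Relative to progenitor-rule cells, 9.5% of the genes were 2-fold or more higher in joined cells and 4.09% as much lower. Relative to mature-rule cells, 8.32% were 2-fold or more higher and 1.39% as much lower. The joined profile was nearer to the mature one by this measure. The least squares weight of the progenitor-rule profile in the pooled joined profile was 0.414, the rest being mature-rule. Gene by gene, over the 469 genes with references apart, the weight had a median of 0.445 (quartiles 0.364 and 0.527). Against references restricted to cells of at least 4337 counts, the lower quartile of the joined cells, the least squares weight was 0.274, so it depended on the depth of the references.

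**Figure D3:**
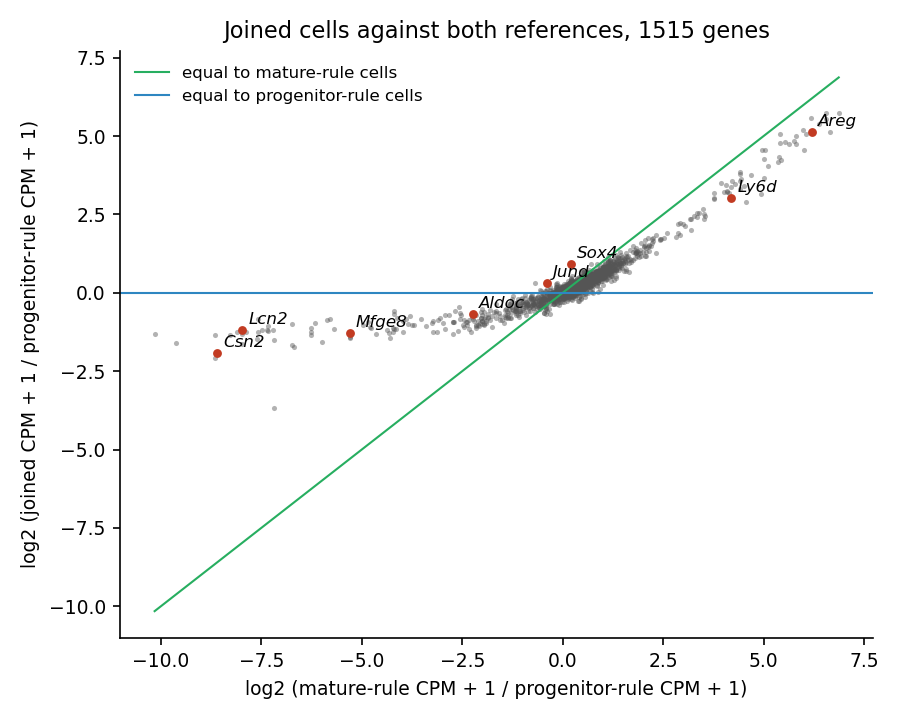
Each point is 1 of 1515 genes, with the log2 ratio of mature-rule to progenitor-rule cells on the x axis and of joined to progenitor-rule cells on the y axis, both with 1 CPM added. Points between the blue and the green line have a joined level between the references, as 80.7% do; Sox4 and Jund lie above both lines.

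Per cell instead of per total counts, the joined cells had a median of 0.865 times the summed mean counts of a progenitor-rule and a mature-rule cell over the 1515 genes (quartiles 0.799 and 0.926). For 5 genes this ratio was 1.2 or more and for 11 it was under 0.6. Sox4 (1.49), Gnb1 (1.35) and Jund (1.22) were among the first, and the caseins Csn1s1 (0.435) and Csn2 (0.483) among the second. Against the deep references, the median over genes was 0.504.

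Genes of the LP lineage, taken from a list the study drew from other cells, were carried by the joined cells at a reduced share. The list has 23 genes, of which 2 are rule genes, and 15 of the other 21 passed the level filter. All 15 were between the references (80.7% of all tested genes). Where the references were 2-fold or more apart, 468 of 469 genes were between, so this was not particular to the list. All 15 were 2-fold or more above mature-rule cells, where 8.32% of all tested genes were, and 12 were 2-fold or more below progenitor-rule cells, where 4.09% of all tested genes were. As the classes were chosen with Trf, Csn3 and Elf5, these counts describe the choice. The median ratio to progenitor-rule cells was 0.403, against 1.18 over all tested genes. Spp1, the secreted phosphoprotein osteopontin, was the most abundant, at 18238 CPM against 46075 in progenitor-rule and 114 in mature-rule cells. Cd14, a surface marker of progenitors, was at 1218 CPM against 2923 and 37.1.

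Within the milk and secretory genes the reduction was uneven. The list has 20 genes, of which 2 are rule genes, and 12 of the other 18 passed the filter and were between the references. So were 80.7% of all tested genes, and 468 of 469 genes with references 2-fold or more apart. The alpha-S1 casein gene Csn1s1 was at 823 CPM in joined cells (763 to 887), 3464 in progenitor-rule and 7.61 in mature-rule cells. The beta-casein gene Csn2 was at 1567 CPM, against 5931 and 14.3. The joined levels of these caseins were 0.238 and 0.264 of the progenitor-rule level, while Lcn2, an iron-binding defence protein, had 0.442 of it and Plin2, a coat protein of lipid droplets, 0.563. The caseins were also patchy between members, since Csn1s1 was found in 58 of 155 joined cells, with 63 counts in the highest, and Csn2 in 43, with 130 in the highest. Lcn2 was found in 151. Progenitor-rule cells were uneven as well. The LP genes outside the rule, which include these caseins, had 0 to 3522 counts per progenitor-rule cell, with quartiles of 25 and 246. Unevenness was thus not particular to joined cells.

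The regulators of progenitor and alveolar fate were mostly low. Of 19 listed genes, 18 were matched, Elf5 is a rule gene, and 5 passed the filter. Ehf, a transcription factor related to Elf5, was at 107 CPM against 182 in progenitor-rule and 12.2 in mature-rule cells, and Elf3, of the same family, at 191 against 376 and 137. The receptor Kit was at 32.2 CPM against 53.3 and 0.913. Sox9, a progenitor transcription factor, was at 290 CPM against 176 and 278, which placed it at 1.04 times the mature-rule level (0.901 to 1.2). Sox4 is in this list as well.

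Genes of the ML lineage had a higher median ratio to their reference class, but this list was less particular to 1 class than the LP list. Of 31 listed genes 2 are rule genes and 21 of the other 29 passed the filter. All 21 were between the references (80.7% of all tested genes, 468 of 469 with references 2-fold or more apart). Of the 21, 12 were 2-fold or more above progenitor-rule cells (9.5% of all tested genes). In the other direction, 3 were 2-fold or more below mature-rule cells (1.39% of all tested genes). The median ratio to mature-rule cells was 0.651, against 0.911 over all tested genes. Some listed genes were also high in progenitor-rule cells, such as Clu (3370 CPM, against 735 in mature-rule cells), so this median is not like that of the LP list. Over all genes with references 2-fold or more apart, the 2 directions were closer. The median progenitor weight was 0.430 for those higher in progenitor-rule cells and 0.459 for those higher in mature-rule cells. Krt18, a luminal keratin, was at 15434 CPM against 14321 in progenitor-rule and 16121 in mature-rule cells, and Krt19 at 8307 against 6036 and 12090.

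Secreted signals of hormone-sensing cells followed the mature genes. Areg, the growth factor amphiregulin, was at 1596 CPM in joined cells (1512 to 1684), 44.7 in progenitor-rule and 3346 in mature-rule cells. Ptn, the growth factor pleiotrophin, was at 8941 CPM against 310 and 16910. Cxcl15, a chemokine, was at 545 CPM against 10.7 and 1088. Each of these was near the middle of the range between the references. Of the 8 listed genes Stc2 is a rule gene, 3 passed the filter and all 3 were between. So were 80.7% of all tested genes, and 468 of 469 genes with references 2-fold or more apart.

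Among the hormone receptors and their cofactors, Esr1, the estrogen receptor gene, was low in every class. It was at 31.0 CPM in joined cells (20.3 to 45.5, on 26 counts), 4.57 in progenitor-rule cells and 29.5 in mature-rule cells, so the joined level did not differ from the mature one beyond counting error. The progesterone receptor gene Pgr was at 28.6 CPM, against 1.01 and 64.2. Cited1, a transcriptional co-activator of estrogen receptor, was at 861 CPM against 29.4 and 1405. Gata3, a luminal transcription factor, was at 204 CPM against 107 and 253. In this list of 12 genes, Prlr is a rule gene, 4 of the others passed the filter and 3 of those were between, near the 80.7% of all tested genes.

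Genes of both lineages were found in the same barcodes. Both Areg and Lcn2 were detected in 118 of 155 joined cells (76.1%, 68.6 to 82.6%), in 7.04% of progenitor-rule and in 4.41% of mature-rule cells. At 2000 counts per cell these shares were 59.1%, 5.84% and 2.66%. Each gene was also counted by itself in the reference class of the other lineage. Areg was detected in 7.34% of progenitor-rule cells (median 2602 counts) and Lcn2 in 5.02% of mature-rule cells (median 3196.5 counts). The source of these counts was not tested. Ly6d, a surface antigen of mature cells, and Cd14 were found together in 71.6% of joined cells, 16.9% of progenitor-rule and 7.79% of mature-rule cells, and at 2000 counts in 51.7%, 13.6% and 4.84%. None of these genes entered the rule, but all belong to the lineages that it selects. Pgr and Kit were found together in 5 joined cells and in 0 of 668 and 0 of 976 reference cells, which allow shares of cells with counts of both up to 0.551% and 0.377% (exact binomial). The limits concern detection in shallower cells and not expression, and at 2000 counts per cell no class held such a cell, so this pair was not resolved at equal depth.

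Sox4, a transcription factor of the SRY-related family (chromosome 13, 28948919 to 28953713, minus strand), was the gene furthest above both references. Its pooled level was 341 CPM in joined cells (303 to 383, on 286 counts), 181 in progenitor-rule cells (163 to 201) and 208 in mature-rule cells (193 to 224). The joined level was 1.64 times that of mature-rule cells (1.42 to 1.89), so the counting intervals of joined and reference cells did not overlap. The gene was detected in 98 of 155 joined cells (63.2%), against 30.2% of progenitor-rule and 31.5% of mature-rule cells. At 2000 counts per cell the shares were 42.3%, 24.2% and 24.2%.

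The level of Sox4 was similar across the depth of the joined cells. Joined cells of 2000 to 4000 counts had 357 CPM, those of 4000 to 6000 had 335 and those of 6000 or more had 348, whereas the references had 159 to 242 CPM in all their depth ranges. The 6 joined cells under 2000 counts held 1 count of it. A single joined cell held 21 of the 286 counts, the next 12, and without the first the ratio was 1.54. In joined cells whose progenitor and mature weights, fitted as described below, were both at least 0.25, the ratio was 1.49, just under the 1.5-fold size. Basal-rule cells had 253 CPM of Sox4.

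Jund, a subunit of the AP-1 transcription factor (chromosome 8, 70698949 to 70700616, plus strand), was the other marker proposed for these cells that the rule did not use. It was found in all 155 joined cells, with 1 to 39 counts and a median of 10. Its level was 2045 CPM in joined cells (1949 to 2144), 1638 in progenitor-rule cells (1582 to 1695) and 1249 in mature-rule cells (1211 to 1288). The ratio to progenitor-rule cells was 1.25 (1.18 to 1.32), below the 1.5-fold size but beyond counting error. With thresholds on shares of counts it was 1.15.

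Both genes were compared in the cells that combine basal and mature sums. There Sox4 was at 1.19 times its higher reference (0.814 to 1.69) and Jund at 0.946 times (0.788 to 1.13). In the cells with basal and progenitor sums the ratios were 1.09 (0.849 to 1.38) and 0.824 (0.739 to 0.917). For Sox4 the interval of the joined cells overlapped that of the 24 basal and mature cells, whose level rests on 33 counts, so a difference between these classes was not detectable at this depth. It did not overlap the interval of the cells with basal and progenitor sums. The Jund interval of the joined cells overlapped that of neither class. Such ratios also depend on the mix and on how far apart the references are, so they do not compare like with like. Jund was at 710 CPM in basal-rule cells, below both luminal references. The cells with basal and progenitor sums had a median basal weight of 0.979, from the fit described below. Each class was set against its own references, and the differences between the ratios were not tested.

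The study named 6 genes as examples that were 1.2-fold or more higher on average in its luminal intermediate cells. Those cells came from these samples, so the list is not independent evidence of a direction. They were a cluster and not chosen by the rule used here, so the sets of cells differ. Besides Sox4 and Jund, Ncor1, a nuclear receptor co-repressor, was at 91.9 CPM in joined cells against 47.7 and 61.5, a ratio of 1.49 (1.13 to 1.95). Irx5, a homeobox transcription factor, was at 69.2 CPM against 49.7 and 18.6, a ratio of 1.39 whose interval of 0.988 to 1.94 includes 1. Both were under the filter of 100 CPM. The insulin-like growth factor binding protein gene Igfbp6 was at 14.3 CPM, against 0.507 in progenitor-rule and 63.0 in mature-rule cells, and 11 of its 12 counts came from 1 cell. Igfbp2 had 0 counts in the joined cells. The values of these 2 genes were thus not above both references.

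**Figure D4:**
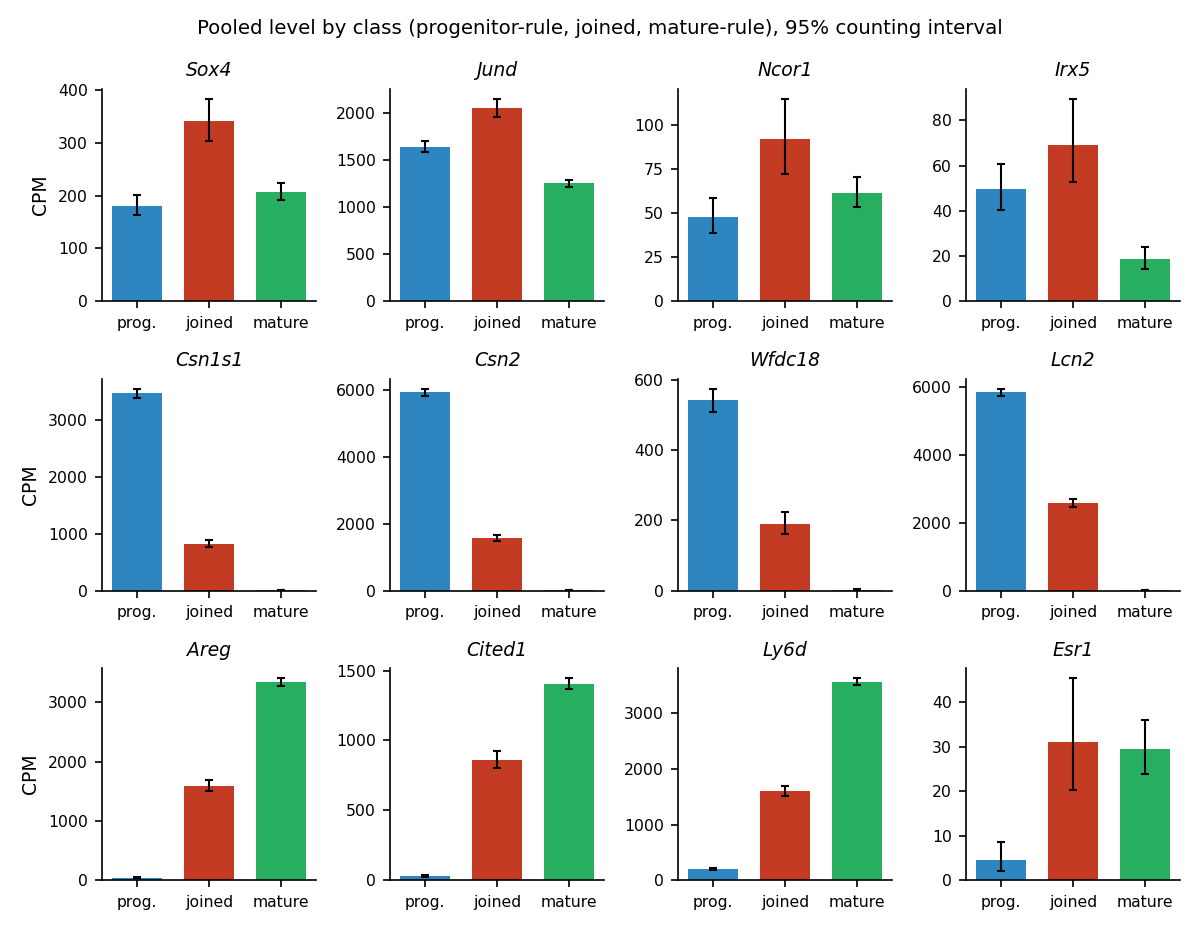
Pooled level in CPM (y axes, each starting at 0) of 12 genes in progenitor-rule, joined and mature-rule cells, with bars for the level and lines for the exact 95% counting interval. Sox4 (341 CPM) and Jund (2045 CPM) are highest in joined cells, and Csn1s1, Csn2, Lcn2, Areg, Cited1 and Ly6d lie between the references.

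The other genes furthest above both references were close to them. After Sox4 came Gnb1, a G protein beta subunit (1.25), Jund, Fxyd6 (1.23), Poldip2 (1.23), Ei24 (1.22), Hdgf (1.21), Rbm7 (1.2), Ube2r2 (1.19) and Ctbp1 (1.19). Of these, Sox4, Jund, Gnb1 and Rbm7 (1.02 to 1.40) had intervals that lay above 1, and the other 6 had intervals that included 1. Those furthest below both were St14, the membrane protease matriptase (0.771 of the lower reference), Ssr1 (0.807), Eif1ax (0.810), Atp2c1 (0.828), Vcp (0.830), Tmod3 (0.834), Elof1 (0.835), Atp1b1 (0.836), Rps12 (0.851) and Tram1 (0.856). Of the latter, St14 (0.613 to 0.962) and Vcp (0.719 to 0.956) had intervals under 1, and the other 8 had intervals that included 1. The genes in both directions were picked as extremes of 1515 by the same counts, and the intervals are not adjusted for that choice.

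Immediate-early genes, which respond quickly to stimuli that include tissue dissociation, were measured because Jund belongs to the AP-1 family. Of 25 listed genes, 23 passed the filter, 19 were between the references, where 80.7% of all tested genes were, and 0 were 1.5-fold beyond both. Junb was at 8494 CPM in joined cells against 8607 and 6077, Fos at 6988 against 5526 and 6327, and Jun at 4554 against 3609 and 4743. Fos was at 1.10 times its higher reference (1.07 to 1.14), less than Jund. The summed level of the list was 40207 CPM in joined, 39554 in progenitor-rule and 32931 in mature-rule cells.

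Luminal genes were high and basal genes low in the joined cells, a pattern that the sums of the rule selected for. Epcam, an epithelial adhesion molecule, was found in all 155 joined cells at 4849 CPM, against 5677 and 4667. Of 19 luminal keratin, claudin and surface genes, 13 passed the filter and 12 were between (80.7% of all tested genes), the other being Krt8 at 5820 CPM against 5944 and 6484. Of 18 basal genes 3 are rule genes and Actg2 had 0 counts. The summed level of the other 15 was 823 CPM in joined cells against 1522 in progenitor-rule, 200 in mature-rule and 34753 in basal-rule cells, and Igfbp5, at 727 CPM in joined and 1339 in progenitor-rule cells, made up most of it outside the basal class. Tagln was at 5.97 CPM and Trp63, the defining basal transcription factor, at 1 count.

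Among genes of the Irx and Igfbp families, 10 in all, only Igfbp5 and Irx3 passed the filter, and both were between the references (80.7% of all tested genes). Irx3 was at 200 CPM in joined cells against 317 and 122. Proliferation genes were low, with 0 counts of Mki67 and Top2a in joined cells and a summed level of the 20 genes of 363 CPM, against 424 and 392.

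Marker genes of cells from outside the epithelium were mostly low in the joined cells, apart from Dcn. Of 8 immune and erythroid genes 6 had 0 counts, among them Ptprc, and 148 joined cells had none of the list. Of 8 endothelial and pericyte genes 5 had 0 counts, among them Cdh5 and Kdr, and the list summed to 28.6 CPM. The fibroblast list of 8 genes summed to 752 CPM in joined, 35.5 in progenitor-rule and 1636 in mature-rule cells. Most of it in joined and mature-rule cells was Dcn, at 712 and 1423 CPM, against 16.2 in progenitor-rule cells. The list had 0 counts in 95 joined cells and 76 in the highest. Col1a1 was at 14.3 CPM and Pdgfra at 0 in joined cells. The neural and glial list summed to 107 CPM, of which Cryab was 99.0.

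Single joined cells differed in how much of each lineage they carried. The counts of each cell were fitted as a mix of the pooled progenitor-rule, mature-rule and basal-rule profiles, without the rule genes. The progenitor weight of the joined cells ran from 0.00743 to 0.916, with quartiles of 0.236 and 0.503 and a median of 0.350, and their mature weight had a median of 0.619. The basal weight was under 0.1 in 151 of 155. Progenitor-rule cells had a median progenitor weight of 0.990 and mature-rule cells a lower quartile of the mature weight of 0.996. The joined cells thus spread over the interval between the references.

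**Figure D5:**
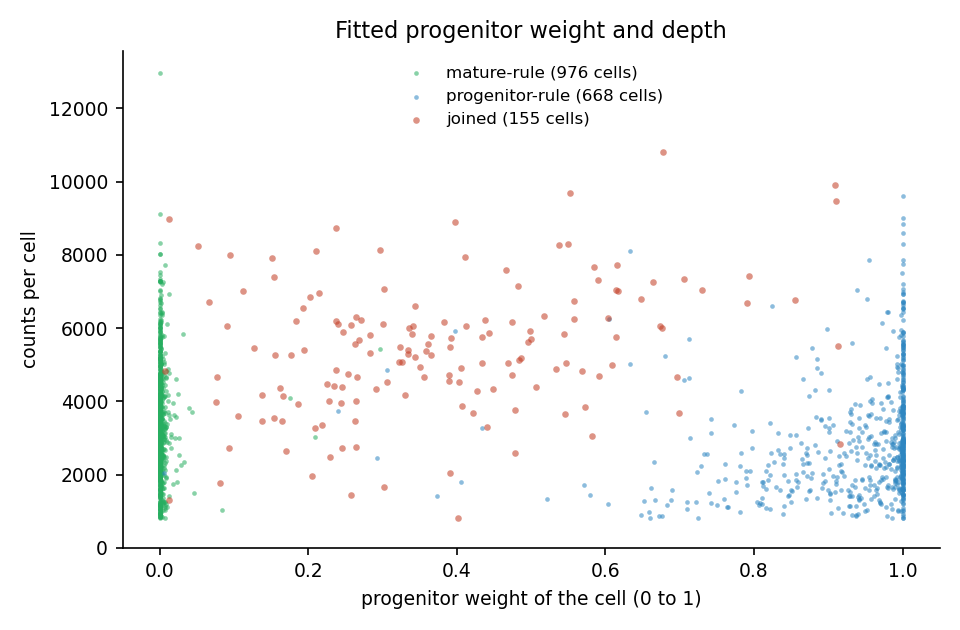
Each point is a cell, placed by its fitted progenitor weight (x axis, 0 to 1) and its counts (y axis), in mature-rule, progenitor-rule and joined classes. The joined cells spread from 0.00743 to 0.916 and the references gather at the ends.

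Conversely, 115 cells of the library had progenitor and mature weights of at least 0.25 each and a basal weight under 0.1, of which 99 were joined, 15 progenitor-rule and 1 mature-rule. They had a median of 5296 counts. Clustering of all cells without the rule genes gave a similar grouping, since 124 of the 155 joined cells (80.0%) fell into 1 of 31 clusters, of 140 cells, in which they made up 88.6%. The other members of that cluster were 10 progenitor-rule cells, 3 mature-rule cells, 2 with all 3 sums and 1 with none. The genes clustered include those of the lineages chosen, so this is no separate line of evidence.

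Marker levels moved along the weight in different ways. In the 47 joined cells with progenitor weight under 0.25, the 69 between 0.25 and 0.5 and the 39 at 0.5 or more, Lcn2 was at 1323, 2462 and 3927 CPM and Areg at 3029, 1204 and 795 CPM. These genes, and Csn1s1, Sox4 and Jund below, were part of the fit that set the weights, so their trends are descriptions only. Csn1s1 was at 93.3, 477 and 2014 CPM, a steeper rise than that of Lcn2. Sox4 was at 445 (364 to 539), 324 (268 to 389) and 266 CPM (206 to 339), with overlap between neighbouring ranges. The cell with 21 counts of Sox4 was in the first range, which without it had 369 CPM (294 to 457), an interval that overlapped that of the last range. Jund was at 1591 (1434 to 1760), 1994 (1850 to 2146) and 2551 CPM (2356 to 2757), so its level was higher in cells of higher progenitor weight. Median depth in the 3 ranges was 4661, 5296 and 6334 counts.

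Over the 155 joined cells the LP genes outside the rule took 0 to 22.1% of a cell's counts, with a median of 0.747%, and the ML genes outside the rule 2.44 to 8.57%, with a median of 4.64%. In progenitor-rule cells the LP median was 2.82% and the ML median 2.76%. In mature-rule cells the LP median was 0.029% and the ML median 6.50%. The Spearman correlation of both shares over the joined cells was -0.17, and of the counts themselves 0.27. Cells of 1 library share its free RNA, and shares and counts both move with depth, so these are given as descriptions only.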

How the data were processed

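Adult mouse mammary cells were profiled as 2 libraries on the 10X Chromium platform. Whole-number counts of unique molecules per gene and cell, made by the authors with Cell Ranger, were deposited without normalization. The submitters' processing notes name Cell Ranger 1.2.1 and mm10, whereas the methods of the study name another release. The cells in the files are as many as the labels state. Their filter on low coverage cannot be repeated from the counts, and reads shared by near-identical genes may be lost in such counting.

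The rule, the gene lists and the comparisons were chosen with earlier results of these data known. Groups came from the sample labels. Counts were summed per class and scaled to CPM; genes under a mean of 100 CPM over 3 classes were left out of the summary, and ratios between classes were taken without a pseudocount; plots added 1 count or 1 CPM, and the reference profiles of the per-cell fit 0.5 counts per gene. Intervals are exact (Clopper-Pearson, Poisson, or conditional for ratios) at 95%. Thinning drew counts without replacement to 2000 per cell. Per-cell weights were fitted by multinomial likelihood. Genes named are the rule and marker genes, the highest members of the lists, and the 10 genes furthest above and below both references; others (Aurkaip1, and some lower list members such as Kit and Esr1) were chosen after their values were seen. Positions came from the GENCODE annotation of GRCm38, counted from 1.

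Doublets were not removed; Scrublet in scanpy 1.11.5 (expected rate 0.05) was used to describe classes. Clusters were made by the Leiden method (leidenalg 0.10.2, resolution 3, 15 neighbours, 30 components, 2000 variable genes). Python 3.11.15, numpy 2.4.6 and scipy 1.17.1 were used, and the fits were tested on simulated data. No test or p-value was computed, since each kind of sample is 1 library. Alternatives changed the thresholds, the references, the filter and the members.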

Additional observations from a re-analysis of the deposited data

How the results depend on the processing

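The number of joined cells was 188 with luminal thresholds of 5 and 4, 112 with 20 and 16, 118 with thresholds on shares, 95 after thinning to 2000 counts, and 99 with both weights at least 0.25. The latter restriction, those to cells of 2000 counts or more and to cells other than the 1 with most Sox4, were chosen after seeing the data. Median depth stayed between 5064 and 5636 counts. Genes between the references numbered 2854 of 4101 at a filter of 30 CPM and 1166 to 1242 otherwise. Genes 1.5-fold above both were 13 at 30 CPM, 2 with means over cells and 7 at a size of 1.2-fold. Sox4 was among them in each setting but the weight restriction, where the 1 gene was Aup1. The progenitor weight was 0.274 against deep references and 0.385 to 0.439 otherwise. The median of joined counts over summed references was 0.504 against deep references, 0.848 and 0.853 at the lower and higher thresholds, 0.791 with shares, 0.879 with stricter references, 0.859 with a basal sum under 3, and 0.890 in joined cells of 2000 counts or more. Sox4 ratios ran from 1.49 to 1.87 and Jund ratios from 1.15 to 1.34. The causes of these shifts were not tested, except that deep references have more counts per cell by construction. No paired analysis was possible because each kind of sample is 1 library and the result comes from no test. With 1 library per kind of sample, depth limits single genes: a gene at 50 CPM rests on about 42 joined counts.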

Other observations

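At a lower filter of 30 CPM, 12 genes beside Sox4 were 1.5-fold or more above both references, and they were chosen by their values. Nfia, a nuclear factor I transcription factor, was at 52.5 CPM in joined cells, 15.2 in progenitor-rule and 24.7 in mature-rule cells, a ratio of 2.13 (1.44 to 3.11). Its relative Nfic was at 66.8 CPM against 44.1 and 34.1. Yy1 (1.61), Rest (1.54), Gatad2b (1.65), Zmiz1 (1.68) and Cdk12 (1.64) were also in this group. Sprr1a, a cornified envelope gene, was at 68.0 CPM against 0 and 42.0. Clint1 (1.51), Ldah (1.65), Mospd3 (1.53) and Pcmtd2 (1.68) complete the group. These ratios rest on 41 to 59 joined counts each, and 4101 genes were compared.

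Apod, a secreted lipid carrier, was the gene furthest below the summed references, at 45.3 CPM in joined cells against 591 in progenitor-rule and 3.04 in mature-rule cells. The joined cells held 0.140 of its summed reference counts per cell, against a median of 0.865 over genes.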
